A study of Mus musculus with 2 samples.

Results

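Among the short coding spans of the mouse genome, 240 genes carried very strong DNase I signal in M1 cells. They were chosen by that signal. Each gene of the deposited table on chromosomes 1 to 19 was represented by its row with the most windows, where a window is a 700-bp tile and a span is the stretch from start to stop codon. Genes of 3 windows or less were kept if the mean in untreated cells was 80 or more reads per window. Symbols beginning with Hist and the repeat genes Gm10800 and Gm10801 were left out, which removed 54 genes above that level. The 240 members are 1.11% of the 21648 genes on these chromosomes and 5.07% of the short ones, and the weakest of them stood at the 97.8 percentile of the untreated means. Their own mean in untreated cells was the selection value, so levels in untreated cells, and ratios that divide by them, are given as descriptions without a test.

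M1 is a mouse myeloid leukemia line of progenitor-like cells, in which the cytokine IL-6 sets off differentiation into macrophages. Untreated cells and cells kept in IL-6 for 4 to 5 days gave 1 library each, both from the same line at passages 15 to 18. With 1 library per condition no difference has a replicate check. The intervals below are 95% Clopper-Pearson intervals, whose width reflects the number of reads and no variation between cultures, so they say nothing of the conditions as such.

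DNase I cuts DNA most readily where nucleosomes have been displaced, so a strong signal marks open chromatin, most often a promoter or an enhancer. Many mammalian promoters lie in CpG islands, stretches that keep a high density of CG pairs and are open in most cell types. Satellite repeats are tandem copies found near centromeres, and the assembled genome holds only part of them, so reads from many unassembled copies can pile up on the few copies that are listed.

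The members were of these kinds, and their sequences show the difference. The 250 bases before the annotated start of 4 members with CG pairs there and of a further member without any are given first. They are on NCBIM37, 5′ to 3′ on the strand of the gene, with CG pairs in capitals. No annotated transcript overlaps any of these 5 stretches.
Mrpl34 (chr8:73988575-73988824, plus strand): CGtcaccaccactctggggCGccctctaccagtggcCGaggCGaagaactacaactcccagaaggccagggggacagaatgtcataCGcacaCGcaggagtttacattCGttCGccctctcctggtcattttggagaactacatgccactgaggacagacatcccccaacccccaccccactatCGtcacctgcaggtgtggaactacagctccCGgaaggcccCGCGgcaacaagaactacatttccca
H2afx (chr9:44142548-44142797, plus strand): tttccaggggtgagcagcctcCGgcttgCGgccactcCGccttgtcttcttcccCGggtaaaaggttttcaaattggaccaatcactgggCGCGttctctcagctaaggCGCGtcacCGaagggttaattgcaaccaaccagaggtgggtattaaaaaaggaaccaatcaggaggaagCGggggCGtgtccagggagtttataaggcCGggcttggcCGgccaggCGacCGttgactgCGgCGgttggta
Mt1 (chr8:96702739-96702988, plus strand): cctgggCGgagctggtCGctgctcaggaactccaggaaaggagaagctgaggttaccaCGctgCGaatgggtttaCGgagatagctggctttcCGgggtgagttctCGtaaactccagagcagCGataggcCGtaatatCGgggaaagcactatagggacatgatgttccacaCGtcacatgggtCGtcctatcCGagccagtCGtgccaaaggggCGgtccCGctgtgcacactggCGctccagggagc
Junb (chr8:87502618-87502867, minus strand): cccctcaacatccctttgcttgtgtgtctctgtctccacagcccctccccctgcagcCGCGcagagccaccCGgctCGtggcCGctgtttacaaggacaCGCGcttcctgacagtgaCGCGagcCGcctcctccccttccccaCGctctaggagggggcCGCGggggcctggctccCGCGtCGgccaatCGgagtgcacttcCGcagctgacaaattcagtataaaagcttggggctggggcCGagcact
Olfr1509 (chr14:53069818-53070067, plus strand): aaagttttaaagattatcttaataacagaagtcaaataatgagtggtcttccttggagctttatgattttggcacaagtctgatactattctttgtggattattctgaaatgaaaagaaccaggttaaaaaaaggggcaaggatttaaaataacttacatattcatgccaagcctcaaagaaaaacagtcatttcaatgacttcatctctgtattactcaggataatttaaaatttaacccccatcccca
The CG pairs numbered 12 before Mrpl34, 17 before H2afx, 17 before Mt1, 19 before Junb and 0 before the olfactory receptor gene Olfr1509. The promoter of H2afx held CCAAT at 3 positions and TATAAA at 1, counted on both strands, and that of Junb held each of them at 1. The promoter of Mt1 held GGGCGG at 2 positions.

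The first 150 bases of 3 other spans, by rising coordinate on the plus strand, are given for their IL-6 to M1 ratios. Gm10222 had the lowest ratio of all members, and Gm10717 and 3110070M22Rik were among the 9 highest. Capitals mark bases covered by a 32-base sequence found more than once in the genome on either strand.
Gm10717 (chr9:3025417-3025566, plus strand): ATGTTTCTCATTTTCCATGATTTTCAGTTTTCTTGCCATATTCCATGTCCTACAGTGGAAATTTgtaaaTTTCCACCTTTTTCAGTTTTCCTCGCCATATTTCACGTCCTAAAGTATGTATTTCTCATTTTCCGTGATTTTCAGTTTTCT
3110070M22Rik (chr13:120276659-120276808, plus strand): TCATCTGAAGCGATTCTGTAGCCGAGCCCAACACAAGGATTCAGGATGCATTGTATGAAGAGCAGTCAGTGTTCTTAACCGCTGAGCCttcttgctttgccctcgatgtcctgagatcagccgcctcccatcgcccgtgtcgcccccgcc
Gm10222 (chr1:24619243-24619392, plus strand): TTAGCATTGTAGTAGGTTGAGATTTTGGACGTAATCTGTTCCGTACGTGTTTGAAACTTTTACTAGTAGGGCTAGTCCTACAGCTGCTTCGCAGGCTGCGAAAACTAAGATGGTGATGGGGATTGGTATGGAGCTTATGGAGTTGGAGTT
In Gm10717 145 of the 150 bases were covered by repeated sequence. In 3110070M22Rik it was 88, and in Gm10222 all 150. The stretch of Gm10222 also occurs whole in the mitochondrial genome, at positions 10024 to 10173 on the minus strand.

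In untreated cells the members had a median of 144 reads per window, from 80 to 1426. In IL-6-treated cells the median was 39.5 scaled reads per window, from 14.5 to 579. All 240 had a lower value after IL-6 on the deposited scaling, in which a read of the IL-6 library counts 1.04. The log2 ratio of IL-6-treated to untreated cells, with 0.5 reads added to each library, had a median of -1.94, quartiles of -2.18 and -1.72 and an SD of 0.46 between members. At least 2-fold lower were 230 members, at least 4-fold lower were 99, and at least 2-fold higher were 0. The interval of the ratio lay wholly below 1 in 238 members and wholly below 0.5 in 220. In a bulk library, fewer cells with an open site and weaker cutting in each cell cannot be told apart.

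As background, a 2-fold lower value was found in 13.2% of all genes that passed 21 reads in one library or the other, and a 2-fold higher one in 1.67%. Among the short genes with that many reads, the members included, the shares were 27.2% and 7.16%. A 4-fold lower value was found in 1.51% of all these genes and in 7.16% of the short ones. The interval lay wholly below 1 in 34.4% and 31.7%, and wholly below 0.5 in 8.16% and 18.2%. The members were chosen on one side of the same contrast, so nothing is read from their larger shares. How far the scaling matters depends on the genes it rests on. Scaling by total reads, or by the median of ratios over all genes, moved every log2 ratio by less than 0.05, and leaving the reads unscaled moved it by about -0.05. Scaling by the median of ratios over 87 single-window genes with at least 22 reads in both libraries raised the scaled IL-6 reads by 1.88 on the log2 scale, and the ratios by slightly less because of the reads added. On that scale the median of the members was -0.077, with 0 members lower by 2-fold or more and 9 higher by that factor. Members were not left out of the 87 genes, and 47 members have 1 window. A member median near 0 is therefore partly built into this scaling, and nothing is read from it. All directions below are on the deposited scaling, and what is compared between members does not depend on a common factor.

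**Figure D1:**
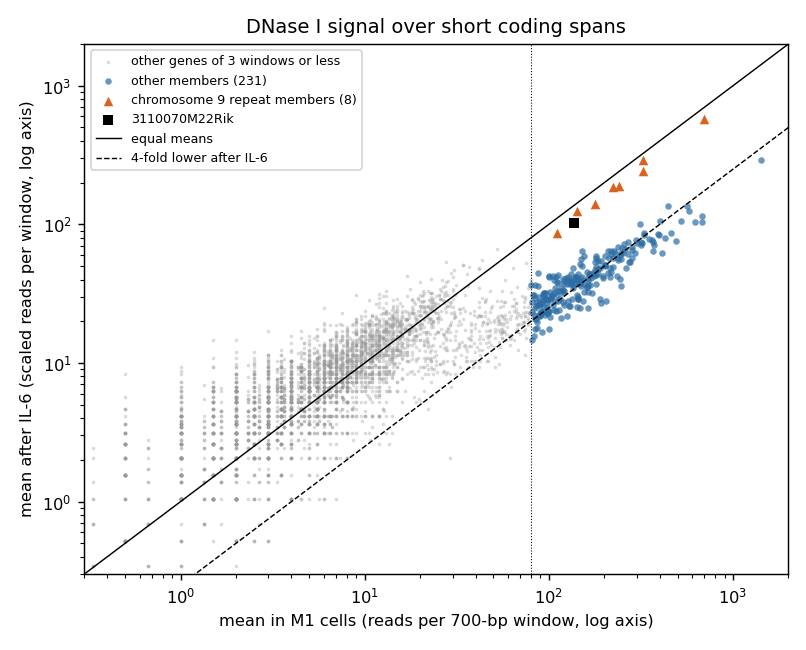
Mean signal in untreated M1 cells (x axis, reads per 700-bp window) against the mean after IL-6 (y axis, scaled reads per window), both on log axes, for members (blue, orange and black) and for other genes of 3 windows or less (grey, without those at 0 in either library); the dotted line is the threshold of 80. On the deposited scaling 231 members lie around the dashed line of a 4-fold lower mean, and 9 lie close to the line of equal means. The median-of-ratios scaling over single-window genes would raise every point by 1.88 on the log2 scale.

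The members fell into 2 sets with an empty stretch between them. The log2 ratio was -0.43 or higher in 9 members and -0.97 or lower in 231. No member lay between these values. The 9 were all predicted genes, and 8 of them lie side by side at the beginning of the assembled sequence of chromosome 9. These sets were seen in the ratio itself and are not groups of the study.

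The 8 chromosome 9 genes are Gm10722, Gm11168, Gm10720, Gm10719, Gm10718, Gm10717, Gm10106 and Gm17535. Their untreated means ran from 111 in Gm10719 to 696 in Gm10717, the second highest of all members. The means after IL-6 ran from 86.2 in Gm10719 to 579 in Gm10717. The 8 log2 ratios, from -0.41 in Gm17535 to -0.14 in Gm10106, had a median of -0.31. Their SD of 0.090 was close to the 0.094 that counting error alone gives. Together they held 5233 reads in untreated and 4126 reads in IL-6-treated cells, a ratio of 0.819 (0.786 to 0.853). The intervals of 2 of them, Gm10106 and Gm11168, included 1.

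These 8 spans are repeat copies by sequence. A median of 93.2% of the 32-base sequences in their windows occurred more than once in the genome, with a median of 10 to 21 copies and at most 126. Their windows were AT-rich, with a median GC content of 34.9%, against 57.0% over all members. Gm10720 and Gm10719 also share a window, whose reads count for both in the sum above. The 8 are therefore not separate measurements of a locus, since a read can come from any copy, assembled or not.

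The ninth, 3110070M22Rik, lies near the other end of a chromosome, at chr13:120276659-120277015, 7297 bp from the last assembled base of chromosome 13. Its mean was 138 in untreated and 102 in IL-6-treated cells, a ratio of 0.744 (0.616 to 0.896). Its windows resembled those of other members more than the satellite, with 62.8% GC and 16.3% repeated 32-base sequences. The values of its pair of windows follow from the mean and SD and were 175 and 100 reads in untreated cells. After IL-6 they were 172 and 32.2 scaled reads. If the stronger window was the same in both libraries, that window had a ratio of 0.985 and the other a ratio of 0.322. The table does not say which window held which value.

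Distance to the end of the assembled chromosome separated the same 9 members from the rest. The chromosome 9 genes lie 921 to 34598 bp from the first assembled base. Within 100000 bp of an end lay 9 members, and these were the 9 with the high ratios. The next, 1700012B15Rik on chromosome 12, lies 236610 bp from an end and had a log2 ratio of -2.44. Short genes that were not members and lay within 100000 bp of an end numbered 12. They had a median log2 ratio of -0.27, at a median untreated mean of only 9.75 reads per window. This relation was noticed in these data and has no test. Closeness to an end and repeat content coincide in 8 of the 9 members and cannot be told apart there.

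**Figure D2:**
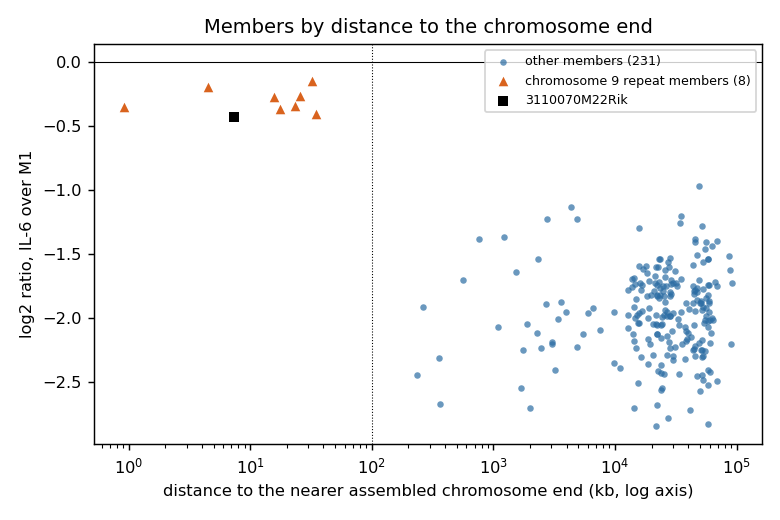
Log2 ratio of IL-6-treated to untreated cells (y axis, deposited scaling) for each member against the distance of its span to the nearer end of the assembled chromosome (x axis, kb, log axis). The 9 members left of the dotted line at 100 kb lie at -0.43 and above, and the 231 others at -0.97 and below; the median-of-ratios scaling over single-window genes would raise them by up to 1.88.

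The other 231 members had a median log2 ratio of -1.95 and held 83956 reads in untreated and 20168 reads in IL-6-treated cells. The ratio of these sums was 0.249 (0.246 to 0.253). Reads of a window that members share count for each of them, and the interval makes no allowance for this. Their SD was 0.34, where counting error alone gives 0.20. The ratios divide by the selection value, so this spread is a description. The interval of a member's ratio included the summed ratio in 169 of them. It lay wholly below in 27 and wholly above in 35.

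The ratio was lower in members with stronger signal. The median log2 ratio was -1.77 in 52 members with an untreated mean of 80 to 100, -1.82 in 74 with 100 to 150, -2.01 in 65 with 150 to 250 and -2.20 in 40 above 250. Across the 231 members Pearson's r with the log2 untreated mean was -0.47 and Spearman's rho -0.45. The untreated mean is the denominator of the ratio, and all values come from the same pair of libraries, so this is a description. With the GC content of the windows r was -0.01, and with their CpG ratio -0.24. The number of windows made little difference to the ratio. Medians were -1.95, -1.95 and -1.88 in the 47, 122 and 71 members of 1, 2 and 3 windows. These counts cover all 240 members, the 9 near chromosome ends included.

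The strongest member was C330011M18Rik, a predicted gene with 1 window on chromosome 8, which fell from 1426 to 291. The start of Rfx1, a gene for a DNA-binding factor, lies 35 bp outside that window. C730034F03Rik on chromosome 15 fell from 678 to 104, and the start of Chkb, a choline kinase gene, lies inside its window. Gm7461 on chromosome 8 fell from 676 to 115. At this window size the signals of C330011M18Rik and C730034F03Rik cannot be told apart from those of the neighboring promoters.

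The lowest ratio was that of Gm10222 on chromosome 1, the span with a mitochondrial copy, which fell from 204 to 28.03 (ratio 0.137, 0.0884 to 0.206). Of its 32-base sequences 96.4% occurred again in the genome. The 13 mitochondrial genes of the table had 0 reads in both libraries. The number of mitochondrial molecules in these cells is therefore not seen in the table, and its part in the value of Gm10222 was not tested. D830039M14Rik followed with a fall from 193 to 26.99, Gm5129 with 248 to 35.8, the histone variant gene H2afx with 412 to 62.3 and Gm11031 with 164 to 24.9. The intervals of these 5 members overlapped, so their order is not set.

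At the other end of the 231 was S1pr4, a receptor for sphingosine 1-phosphate found on blood cells, with 87.3 reads per window before and 44.6 after (ratio 0.511, 0.411 to 0.633). It was the member just short of 2-fold. Next came Ighv8-12, an antibody variable segment, with 80 and 36.3. Mt2, a metallothionein gene, fell from 84.0 to 36.3, and Ighv1-54, a further antibody segment, from 100 to 42.6. The intervals of these 4 genes overlapped. That of S1pr4 lay wholly above the interval of C330011M18Rik, 0.179 to 0.232, and of H2afx, 0.113 to 0.199. S1pr4 and H2afx were picked by their ratios and C330011M18Rik by its untreated mean, so nothing is read from this separation.

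By symbol, predicted genes made up 105 of the 240 members. These are 6.57% of 1598 short predicted genes, near the 5.07% over all short genes. Without the 8 repeat genes of chromosome 9 the median of the remaining 97 was -2.04, and that of the 135 members with other names was -1.89. In 50 of the 97 a transcript of another coding gene starts inside the windows, which is 51.5%, against 6.43% of the predicted genes among other short spans. The median was -2.05 in these 50 and -2.01 in the other 47.

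Genes of protein synthesis and of mitochondria were next. Ribosomal protein genes gave 7 members of 75 short genes, with log2 ratios from -2.25 to -1.63 and a median of -1.88. Rps29 was the strongest, at 399 before and 83.7 after IL-6. Mitochondrial ribosomal protein genes gave 6 of 14, the highest share with the splicing class, with ratios from -2.40 to -1.71. Mrpl34, whose promoter is shown above, fell from 460 to 86.7. The genes of the respiratory chain and of mitochondrial import gave 4 of 17, with Ndufaf3, an assembly factor of complex I, at 258 before and 66.1 after. Splicing, small RNP and RNA polymerase genes gave 3 of 7, led by Sf3b5 with 327 and 84.1. None of these classes held a member above the empty stretch.

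Transcription factor genes gave 10 members of 96 short genes, with a median of -1.92 and a range from -2.20 to -1.28. Hes6 was the strongest, with 197 reads per window before and 42.6 after. Of the AP-1 genes, which answer quickly to growth signals, Junb fell from 176 to 42.2, Jun from 121 to 26.3 and Jund from 94.0 to 32.2. Jund shares both windows with the predicted gene Gm11175, so these are the same reads. The immediate early gene Ier2 fell from 192 to 54.5 and Ier5 from 97.5 to 25.4. Id2, an inhibitor of helix-loop-helix factors, fell from 125 to 41.0. The C/EBP factors act in granulocyte and macrophage differentiation. Cebpb fell from 90.5 to 23.9 (ratio 0.264, 0.187 to 0.366) and Cebpe from 87.7 to 36.0 (0.411, 0.324 to 0.517). These intervals overlapped. Outside the class, the blood factor gene Lyl1 fell from 239 to 68.9.

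Some members have known roles in macrophages and inflammation. These and the next genes were chosen for their roles after their values were seen, and their lower values after IL-6 are those of all members. Cd68, a lysosomal protein of macrophages, had 129 reads per window before and 25.95 after, a log2 ratio of -2.31. Tnf, the inflammatory cytokine, had 96.7 and 28.7, a log2 ratio of -1.74. Mif, a cytokine first described as an inhibitor of macrophage migration, had 252 and 62.3. Gpr84, a receptor for medium-chain fatty acids on myeloid cells, had 370 and 74.2 (ratio 0.201, 0.167 to 0.240). That interval lay wholly below the interval of S1pr4, but S1pr4 was picked by its ratio, so nothing is read from this. Lpar6, a receptor for lysophosphatidic acid, had 86.3 and 18.0. The start of an annotated transcript of Rb1 lies inside its windows as well, which need not be the main promoter of Rb1.

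Metal and stress genes were among the members too. Mt1 and Mt2 bind metal ions and lie side by side on chromosome 8. Mt1 fell from 443 to 137 (ratio 0.309, 0.268 to 0.354). The interval of Mt2, 0.323 to 0.575, overlapped that of Mt1 in a narrow range. The glutathione peroxidase gene Gpx1 fell from 302 to 73.4, and Fadd, an adaptor of death receptors, from 155 to 59.5. The GTPase gene Rhob led its class of 4, with 321 and 73.2.

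Some members belong to families whose known roles lie in other cells. Olfactory and pheromone receptors gave 2 members of 1289 short genes, whose median untreated mean was 3.33 reads per window. Olfr1509 on chromosome 14 had 619 before and 104 after, the fifth highest untreated mean. Its windows had a GC content of 42.0% and no repeated 32-base sequence, and no start of another coding gene lay in them. Of its pair of windows one held 1026 reads in untreated cells and the other 212. Olfr1264 had 149 and 51.9. Antigen receptor segments gave 3 members of 211, namely Ighv8-12, Ighv1-54 and the T cell receptor segment Trbv1, which fell from 164 to 32.7.

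**Figure D3:**
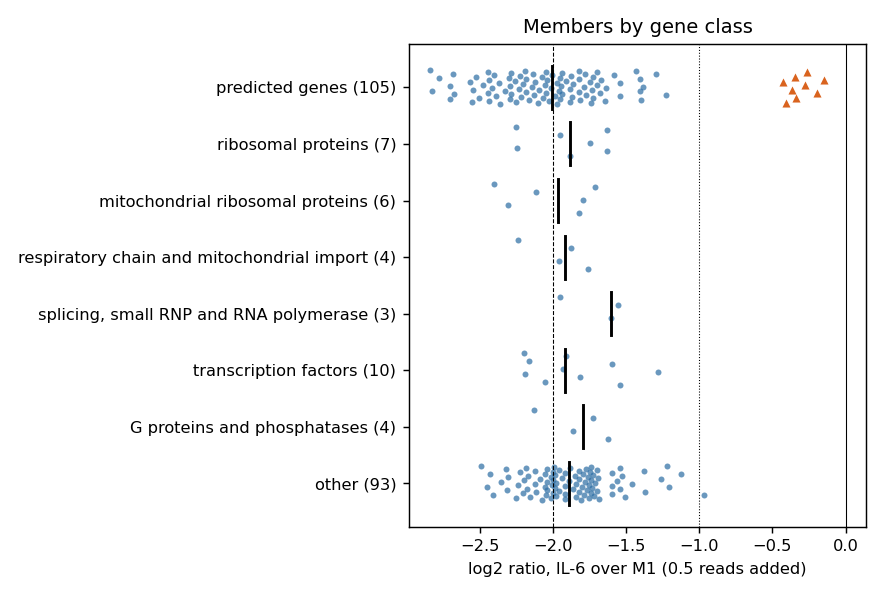
Log2 ratio of IL-6-treated to untreated cells (x axis, deposited scaling, 0.5 reads added) for each member by gene class, for the classes by symbol with at least 3 members and their number in parentheses, with antigen receptor segments among the others; black bars are class medians, orange triangles the 9 members near chromosome ends, and the dotted and dashed lines 2-fold and 4-fold lower values. The medians drawn lie between -2.01 and -1.60 and each class overlaps the others; the median-of-ratios scaling over single-window genes would raise the points by up to 1.88 and turn the medians of the splicing and G protein classes above 0.

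The signal within a span was uneven. In 122 members of 2 windows the reads of both windows follow exactly from the mean and SD. The stronger window had a median of 215 reads in untreated and 54.5 scaled reads in IL-6-treated cells. The weaker one had 72.5 and 21.8. Mrpl34 is an example, with 891 and 28 reads in untreated cells and 156 and 17.6 after IL-6. Whether the stronger window is the same in both libraries is not given by the table.

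The stronger windows had the lower summed ratio. Over the 117 members of 2 windows outside the 9 near chromosome ends, the stronger windows had a summed ratio of 0.231 (0.225 to 0.238). Weaker windows with more than 21 untreated reads, 104 in number, had 0.279 (0.267 to 0.291), and the 13 with 21 reads or fewer had 0.617 (0.489 to 0.775). Weaker and stronger are set by these reads in each library separately, and the weaker windows were split by their untreated reads. The order is therefore partly built in, and the loss of a given window is not seen. The stronger window held at least 5 times the reads of the weaker one in 39 members before and in 18 after IL-6, and its share of all reads went from 75.1% to 71.0%.

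**Figure D4:**
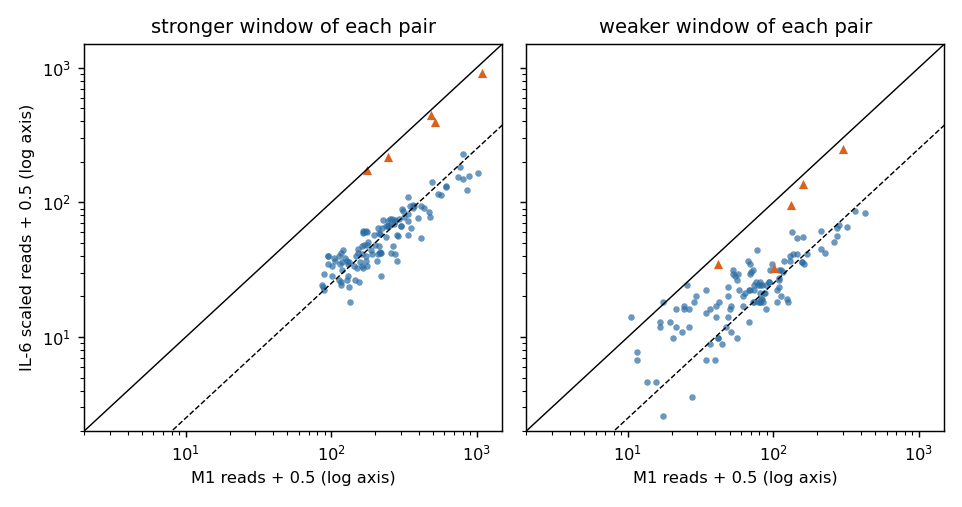
Reads in untreated cells (x axis) against scaled reads after IL-6 (y axis), each with 0.5 added and on log axes, for the stronger (left) and weaker (right) window of the 122 members of 2 windows; solid lines are equal values, dashed lines 4-fold lower ones on the deposited scaling, orange triangles the members near chromosome ends. Stronger windows of the blue members lie around the dashed line, and weaker windows below about 21 reads lie nearer to the solid one.

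The same slope ran on below the threshold. Among short genes that were not members the median log2 ratio was -1.55 in 166 genes with an untreated mean of 40 to 80 and -0.41 in 289 with 20 to 40. It was 0.05 in 722 with 10 to 20, 0.26 in 1189 with 5 to 10 and 0.49 in 2129 below 5. The untreated mean that sorts these genes is also the denominator of their ratios, so a fall across the bins is partly built in and nothing is read from it. Sorting by the IL-6 library instead gave 24 short genes of 80 or more, all of them members, of which 15 were at least 2-fold lower after IL-6. In the 108 short genes with an IL-6 mean of 40 to 80 the median was -1.88. Their median untreated mean was 188, so members make up much of this bin. The median was -0.21 in 432 short genes with an IL-6 mean of 20 to 40 and 0.28 in 1058 with 10 to 20.

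At the threshold itself, Prr7 and Spryd4 had untreated means of 80.5 and Ighv8-12 had 80. Just outside, 1500002C15Rik and Marveld1 had 79.5 and Nudt8 had 78.7. Their means after IL-6 were 23.4, 27.5 and 36.3 inside and 39.97, 24.9 and 26.6 outside.

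The rule did not use sequence, and the members differed there from other short spans. The CpG ratio, which sets the observed CG pairs against those that the base composition gives, had a median of 0.69 in the members' windows and of 0.22 in those of 4495 other short genes. It was 0.6 or more in 157 members, 65.4%, against 9.28% of the others. The short genes just below, with 40 to 80 reads per window, had a median of 0.52, and 34.9% of them had 0.6 or more. The GC content was 57.0% in the members, 45.6% in the other short genes and 55.0% in those just below. The median share of repeated 32-base sequences was 0%, 8.62% and 0.246% in the same order, and 141 members had none. In GC content and repeats the members were thus closer to the short genes just below than to the rest. All short genes together include 1289 olfactory and pheromone receptor genes and 211 antigen receptor segments, of which 2 and 3 are members. The comparisons with other short genes, here and for the motifs below, were not adjusted for this.

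**Figure D5:**
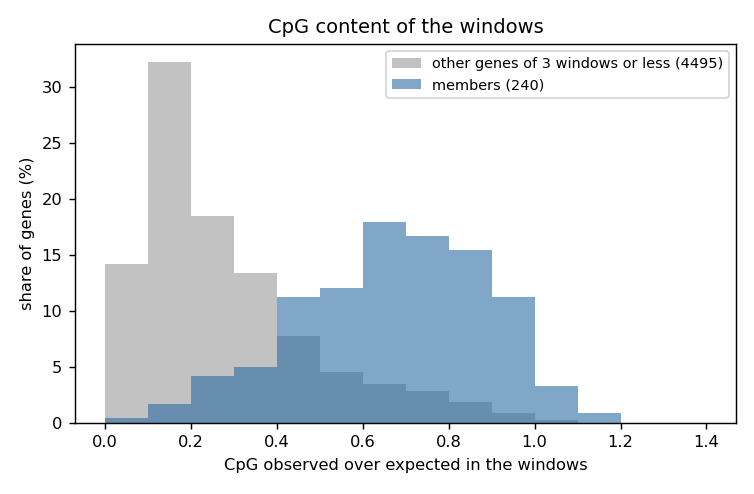
Share of genes (y axis, %) by the CpG observed over expected ratio of their windows (x axis) for the 240 members (blue) and 4495 other genes of 3 windows or less (grey). Most other short genes lie below 0.4, while the members spread around their median of 0.69.

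The annotated start of the member itself lay inside the windows in 176 members, 73.3%, and in 71.4% of the other short genes. Within 250 bases of the windows it lay in 88.75% and 78.2%. An annotated start that is the start codon lies inside the windows by definition. That was so in 18.8% of the members and 42.0% of the others, so the shares inside the windows are not a like comparison. The start of a transcript of another coding gene lay inside the windows in 82 members, 34.2%, against 3.03% of the other short genes and 18.1% of those with 40 to 80 reads per window. Every annotated transcript of the other gene was counted, so such a start need not be its main promoter. With a margin of 250 bases a start, of the gene itself or of such a transcript, was present in 92.1% of the members and 78.8% of the others.

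In the 250 bases before the start, GGGCGG was found on either strand in 48.8% of the members, in 15.2% of other short genes and in 40.6% of all 21648 promoters. TATAAA was found in 6.25%, 25.3% and 12.6%. The short genes of 40 to 80 reads per window, which were not members, held GGGCGG in 49.4% and TATAAA in 8.43%, so these motifs were not particular to the members. CCAAT was found in 36.7%, 33.9% and 34.5%, and GGAA, the core of ETS factor sites, in 93.3%, 92.3% and 92.8%. A match is a description of the letters and not of a bound factor. In 18.8% of the members and 42.0% of the others the annotated start was the start codon, so the promoter window there may not be the real one.

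The members were spread over all 19 chromosomes, from 2.04% of the short genes on chromosome 16 to 13.4% on chromosome 8. They formed 234 separate stretches, since 12 members in 6 sets share windows. All 240 spans equal coding spans of the GENCODE M1 annotation. Marker genes did not identify the cells at this level of the table. In untreated cells 5 progenitor markers had 4.10 to 14.1 reads per window and 5 macrophage markers 2.75 to 129, the highest being the member Cd68. The 5 markers of other cell types had 3 to 10.5, and the median of all genes was 8. After IL-6 the ranges were 5.45 to 13.6, 3.40 to 25.95 and 2.42 to 16.1 scaled reads per window. The macrophage markers went both ways. Csf1r, the receptor for a macrophage growth factor, had 26.2 before and 14.8 after, and Itgam, an integrin, 9.29 and 6.91. Emr1, the F4/80 antigen, had 2.75 and 3.40, and Lyz2, lysozyme, 8.29 and 9.20. Among the progenitor markers the transcription factor gene Myb had 14.1 and 7.33, and the receptor gene Kit 4.10 and 5.45.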

How the data were processed

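DNase I hypersensitivity was measured in untreated M1 cells and after IL-6, with 1 library each. The authors digested nuclei with DNase I, sequenced the small fragments, aligned the reads to NCBIM37 with BWA (named in the submitters' processing notes without a version) and made the table in Seqmonk. Its deposited signal values are the mean and SD over the 700-bp windows that each of 55432 coding spans touches, already scaled between the libraries. Reads were recovered as mean times windows, and all products were within 0.05 of a whole read, worth 1.00 in untreated and 1.04 in IL-6-treated cells. The recovery and the intervals were tested on simulated data. Members are the genes defined at the start of the report, and the members, classes and motifs were chosen with earlier results of these data known. Genes named are the 5 strongest members, the 5 highest and 5 lowest ratios, the strongest of each class of at least 3, and 3 on each side of the threshold, with others for their role. Repeated 32-base sequences and 250-base promoters were read from NCBIM37 with GENCODE M1. The share of masked repeats was not used. 0 columns belonged to other samples. Scalings, added reads, thresholds and window limits were varied. The members held 89464 reads in untreated and 24491 in IL-6-treated cells. Summed over all genes that passed 21 reads in one library or the other, the reads were 9199518 and 8582240. In all sums of reads over genes, a window that genes share counts for each gene. Python 3.11.15, numpy 2.4.6, pandas 2.3.3, scipy 1.17.1, numba 0.67.0 and matplotlib 3.10.9 were used.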

Additional observations from a re-analysis of the deposited data

How the results depend on the processing

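No paired analysis was possible because there is a single library on each side. With reads unscaled the median of the members was -1.99, and with 5 reads added -1.87. The median of ratios over single-window genes changed most, and it rests partly on members, which were not left out of its genes. It gave a median of -0.077 with 0 members at least 2-fold lower and 9 higher. The class medians became -0.15 for predicted genes, -0.016 for ribosomal proteins, -0.10 for mitochondrial ribosomal proteins, -0.050 for the respiratory chain, 0.27 for splicing, -0.052 for transcription factors, 0.078 for G proteins and -0.017 for others. The weaker short spans then had medians of 2.26, 2.10, 1.90, 1.45 and 0.32, from the weakest bin to the strongest. Of 59 genes tracked singly the interval of the ratio then went from wholly below 1 to wholly above it in 15, namely Gm10717 (3.06), Gm10720 (3.04), Gm10718 (2.90), Gm10722 (2.89), Gm10719 (2.85), Gm17535 (2.77), 3110070M22Rik (2.73), S1pr4 (1.88), 1500002C15Rik (1.85), Ighv8-12 (1.67), Mt2 (1.59), Ighv1-54 (1.56), Cebpe (1.51), Fadd (1.41) and Olfr1264 (1.29). The intervals of Gm10106 (3.33) and Gm11168 (3.22), which had included 1, also came to lie wholly above it. Because that factor rests partly on members, such turns among members are partly built in. With reads unscaled, with total reads and with the median over all genes, the ratios of all 59 stayed within their reported intervals. In short spans of 5 to 10 reads the median was 0.21 unscaled and 0.29 by total reads.

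The selection set the counts. With 1 window only there were 47 members, all 47 at least 2-fold lower, and the median of the class of others was -1.70. The row with the fewest windows gave 365 members with 354 lower, and a mean of both columns of 80 or more gave 147 with 138 lower. Without predicted genes there were 135 with 134 lower and an SD of 0.30. An IL-6 mean of 80 or more gave 24 with 15 lower, an SD of 0.96 and a median of -1.03 for predicted genes. Leaving out the 9 members near chromosome ends, an alternative chosen after seeing the data, lowered the SD from 0.46 to 0.34, a change within the 1.5-fold limit. The windows in place of the promoter gave a median CpG ratio of 0.69 instead of 0.77 and a GC content of 57.0% instead of 58.0%. The other alternatives left each value within the same limits. Counts on the members were thinnest after IL-6, where 9 members had 21 or fewer scaled reads per window.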
